A study of Arabidopsis thaliana with 6 samples.

Results

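From the SMALL AUXIN UP RNA (SAUR) family of Arabidopsis thaliana, 10 loci were chosen by name: SAUR41, SAUR71, SAUR72, SAUR75, SAUR76, SAUR9, SAUR15 (also called SAUR-AC1), SAUR35, SAUR36 and SAUR32. Of these 10 loci, 7 had a row in the deposited table of 20423 genes. SAUR71, SAUR9 and SAUR15 had none. The table compared roots of wild-type Col-0 seedlings kept for 6 h in liquid half-strength Murashige and Skoog medium containing 1 µM IAA (indole-3-acetic acid, a natural auxin) with roots kept for 6 h in the same medium without it (Control). Seedlings were 3 days past germination, the labels give 3 libraries per group, and each library came from about 100 pooled whole roots. The libraries were depleted of ribosomal RNA and sequenced on the SOLiD platform.

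SAUR genes encode small proteins, and many of them are transcribed within minutes of an auxin stimulus. Several SAUR proteins bind and inhibit the PP2C.D protein phosphatases, which dephosphorylate the plasma membrane proton pumps of the AHA family. With the phosphatase inhibited, the pump stays phosphorylated and active, the cell wall is acidified and the cell can expand. Most of the family was described in shoots, hypocotyls and leaves, and fewer genes have been studied in roots.

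The table holds 1 value per group and gene, the authors' mean read count after division by size factors (normalised read count), and no value per library. No test between groups and no SD could be computed from it. A gene is called higher or lower here when log2((IAA mean + 1)/(Control mean + 1)) was at least 1 or at most -1, that is, 2-fold on that scale. The 1 added understates the change of genes with low counts. Over all genes, 14.9% were higher and 13.7% were lower by this rule, and the median log2 ratio was 0.01. The treatment check was clear, as IAA5, an Aux/IAA repressor gene, had 48.3 normalised reads in IAA roots and 0.59 in Control roots, and GH3.3, an auxin-conjugating enzyme gene, had 1698.18 and 32.49.

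The lowest means still carried the reads they came from. All 5436 IAA means and all 5425 Control means between 0 and 5 lay on a whole-number sum of 2 steps. The limit was a distance of 0.005 with a small margin added. The steps were 0.36649 and 0.42557 in IAA and 0.58916 and 0.63442 in Control. Of all 2-decimal values between 0 and 5, 22.6% and 10.4% lie on such sums by the same limit. Each step was read as the worth of 1 read, so that reads could be counted for genes with low means. The labels give 3 libraries per group, no further step was seen in either group, and which labelled libraries the 2 steps belong to is not known. If 2 libraries share a step, the reads at that step are a sum over both, which was not tested. Reads are therefore given by step, and whether the labelled libraries of the groups overlap is not known for any gene with reads in both groups. With each step taken as 1 library and the mean as over 2, the IAA column held about 2218000 reads and the Control column about 1505000. The floors and intervals below make the same assumption. The paper reports far more high-quality reads for each sample, and the difference from these totals was not examined. Intervals below are exact binomial (Clopper-Pearson) 95% intervals of the ratio of the means from these reads. They cover counting error only, not the spread between plants or libraries.

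Of the 7 genes with a row, SAUR35, SAUR76, SAUR41 and SAUR75 were higher in IAA roots, SAUR36 was lower, and SAUR72 and SAUR32 lay within 2-fold. The share higher was 57.1%, against 14.9% of all genes, and the share lower was 14.3%, against 13.7%. The loci were chosen with earlier results of these data known, so nothing is read from these shares. SAUR35 and SAUR75 were at 0 in Control roots, and since the table held no gene at 0 in both groups they have a row only through their IAA reads. The median log2 ratio of the 7 genes, 1.11, is the value of SAUR75. Their means summed to 111.3 normalised reads in IAA roots and 77.04 in Control roots. The call of SAUR75 rests on 3 reads.

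**Figure D1:**
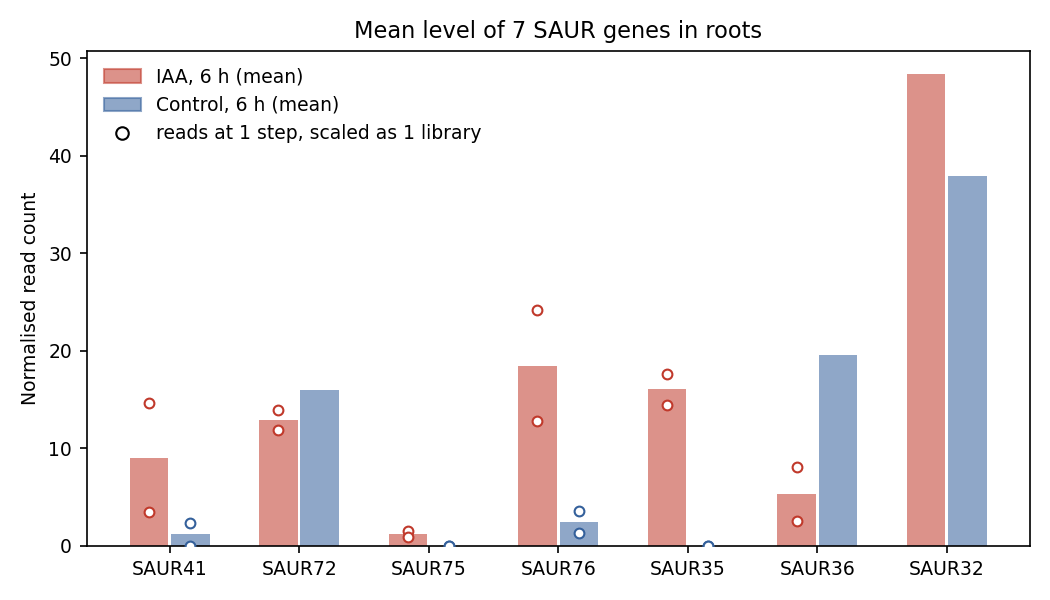
Authors' mean normalised read count (y axis) of the 7 SAUR genes with a row, as bars for IAA roots (left bar of each pair) and Control roots (right bar), with open circles for the reads at each step where only 1 split of the mean is possible (2 per group, scaled as if each step were 1 library and the mean were over 2). SAUR35, with 16.03 against 0, SAUR76, with 18.48 against 2.40, and SAUR41, with 9.03 against 1.18, stand higher in IAA roots, and SAUR36, with 5.31 against 19.58, stands lower.

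SAUR35 (AT4G12410) is a gene of 1 exon on chromosome 4, 7342800 to 7343731, minus strand, with a coding length of 474 bases. It had a mean of 16.03 normalised reads in IAA roots and was listed at 0 in Control roots. The IAA mean splits in only 1 way, into 24 reads at one step and 17 at the other, and the Control mean stands for 0 reads. SAUR35 thus had reads at both steps in IAA roots and no read in Control roots. A floor of 3 reads over the Control group is a mean of 1.83. The IAA mean of SAUR35, taken without its own error, was 8.75 times this floor, and the counting interval of the ratio began at 6.85.

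The protein closest to SAUR35 in the reference annotation is SAUR34 (AT4G22620), and each is named as the best match of the other. SAUR34 had a mean of 31.26 normalised reads in IAA roots and 0.63, a single read, in Control roots. The ratio was 49.6, with an interval of 8.3 to 2164. SAUR34 and SAUR35 had the 2 largest log2 ratios of the 42 SAUR family genes with a row, at 4.31 and 4.09.

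SAUR76 (AT5G20820) lies on chromosome 5, 7046747 to 7047446, minus strand, and is related to SAUR77 and SAUR78. It had a mean of 18.48 normalised reads in IAA roots and 2.40 in Control roots. The IAA mean stands for 33 and 15 reads at the 2 steps, and the Control mean for 3 and 1. If each step were 1 library, these would be 24.2 and 12.8 normalised reads in IAA roots, against 3.53 and 1.27 in Control roots. The ratio was 7.70, with an interval of 2.83 to 29.5.

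The relatives of SAUR76 did not share one direction. SAUR77 (AT1G17345) had 6.70 normalised reads in IAA roots, from 17 reads, and was at 0 in Control roots. Its IAA mean, taken without its own error, was 3.66 times the floor, and the interval began at 2.66. SAUR78 (AT1G72430), the closest protein to SAUR76, had 18.05 in IAA roots and 29.55 in Control roots. Its ratio of 0.61, with an interval of 0.40 to 0.99, stayed within 2-fold. The gene next to SAUR76 on the chromosome, SAUR70, had 0.79 in IAA roots, from 2 reads, and 0 in Control roots, both at or under the floor.

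SAUR41 (AT1G16510) lies on chromosome 1, 5644572 to 5645443, minus strand, and gives its name to a subfamily with SAUR40, SAUR71 and SAUR72. SAUR41 is known to promote cell expansion and to act on auxin transport. It had a mean of 9.03 normalised reads in IAA roots and 1.18 in Control roots. The IAA mean stands for 20 and 4 reads and the Control mean for 2 and 0. If each step were 1 library, these would be 14.7 and 3.40 normalised reads in IAA roots, against 2.36 and 0 in Control roots, so that most of the IAA level came from 1 step. The ratio was 7.65 and its interval, 1.92 to 67.5, was wide because of the 2 Control reads.

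SAUR72 (AT3G12830), on chromosome 3, 4078651 to 4079627, minus strand, is the closest protein to SAUR41 and belongs to the same subfamily. It had a mean of 12.92 normalised reads in IAA roots, from 19 and 14 reads, and 15.95 in Control roots, from 26 or 27 reads. The ratio of 0.81 had an interval of 0.46 to 1.42, which holds both no difference and a 2-fold decrease. SAUR40 had 1 read in each group, and SAUR71 (AT1G56150), the closest protein to SAUR72, had no row. Within the subfamily a level above the floor in either group was thus measured for SAUR41 and SAUR72, and the 1.92 to 67.5 interval of SAUR41 lay wholly above the 0.46 to 1.42 interval of SAUR72. The difference between the 2 genes was not tested.

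SAUR36 (AT2G45210), known as SAG201 and linked to leaf senescence, lies on chromosome 2, 18641563 to 18642739, plus strand. It was the only lower gene of the 7. Its mean was 5.31 normalised reads in IAA roots, from 11 and 3 reads, and 19.58 in Control roots, from 31 to 33 reads. The Control mean can be split between the steps in 3 ways, of which the most uneven puts 2 reads at one step and 29 at the other. The ratio was 0.271, with an interval of 0.135 to 0.564, or 3.69-fold lower in IAA roots. SAUR59 (AT3G60690), its closest protein, had 10.79 in IAA roots and 13.91 in Control roots, within 2-fold.

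Values of shoot and root markers are given beside those of all 7 SAUR genes. Of 7 shoot markers, 5 photosynthesis genes had a row and all 5 were lower, against 13.7% of all genes. They summed to 11.57 normalised reads in IAA roots and 85.53 in Control roots. LHCB2.1, 1 of the 5, had 3 reads in IAA roots and 7 in Control roots, and its interval of 0.046 to 1.21 holds no difference. The shoot meristem genes STM and WUS had no row. All 9 root markers had a row. The root hair genes COBL9 (0.43 in IAA roots, 20.85 in Control roots) and EXPA7 (7.86 and 38.47) and the Casparian strip gene CASP1 (12.32 and 59.82) were lower, the quiescent centre gene WOX5 (15.3 and 3.67) was higher, and 5 were within 2-fold. The part of cell type makeup or of shoot tissue in the SAUR values was not tested. In whole roots fewer cells of a type and less RNA per cell cannot be told apart.

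SAUR32 (AT2G46690), a gene known from the apical hook of dark-grown seedlings, lies on chromosome 2, 19180705 to 19181600, plus strand. It had the highest level of the 7 genes, with a mean of 48.37 normalised reads in IAA roots, from 117 to 132 reads, and 37.93 in Control roots, from 60 to 64 reads. Means of this size can be split between the steps in several ways, so no split is given. The ratio was 1.28, with an interval of 0.86 to 1.96. SAUR33 (AT3G61900), its closest protein, was at 0 in IAA roots and at 1.86 in Control roots, from 3 reads. Neither group exceeded 3 reads, so no fold is given.

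SAUR75 (AT5G27780), on chromosome 5, 9838812 to 9839454, minus strand, was at the limit of what these counts show. It had a mean of 1.16 normalised reads in IAA roots, from 2 reads and 1 read, and was listed at 0 in Control roots. Both values are at or under the floor of 3 reads, so no fold is given, and the log2 ratio of 1.11 depends on the 1 added. SAUR62 (AT1G29430), its closest protein, lies on chromosome 1 and had the same values of 1.16 in IAA roots and 0 in Control roots.

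The sequences of SAUR75 and SAUR62 are shown because the 2 genes share stretches as long as a read. Of the 60-base stretches of the SAUR75 transcript, 74.7% occur once in the TAIR10.1 genome, and 148 stretches are also found in SAUR62. The longest identical run is 162 bases, inside the coding sequence of both. Its first 30 bases, all identical, are given in TAIR10.1 coordinates, chr5:9839163-9839192 and chr1:10303079-10303108, both on the minus strand.
SAUR75: ctgtagaaaagggttgtttcgtggtttaca
SAUR62: ctgtagaaaagggttgtttcgtggtttaca
Only uniquely mapped reads were counted, so a read that falls wholly in such a stretch could be given to neither gene, and both levels are uncertain. For the other 6 genes with a row every 60-base stretch of the transcript was unique.

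**Figure D2:**
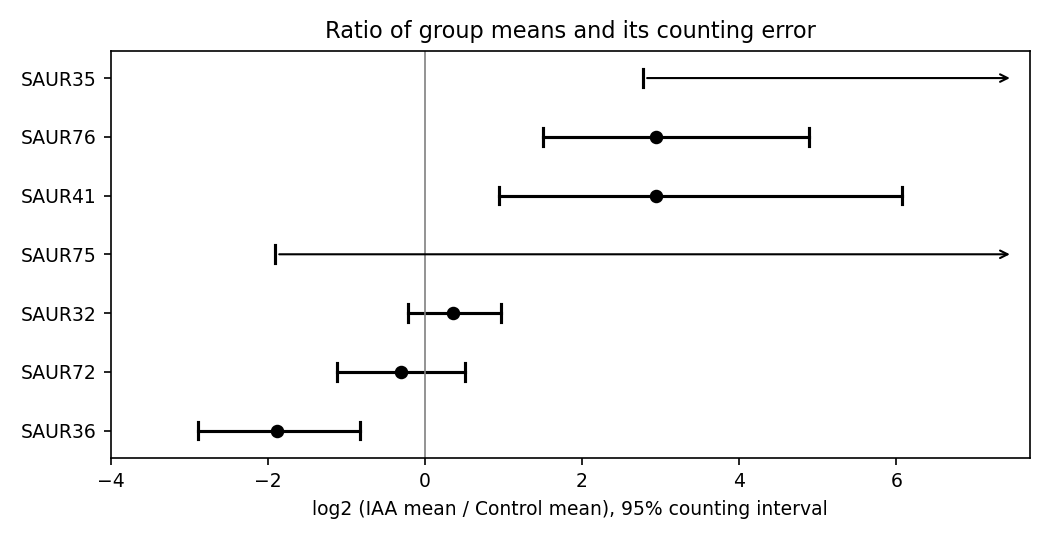
Ratio of the IAA mean to the Control mean on a log2 axis (x) for each of the 7 SAUR genes (y), with points for the ratio and lines for its 95% counting interval. Arrows without a point mark SAUR35 and SAUR75, whose Control mean was 0, so that the interval has no upper end. The intervals of SAUR35, SAUR76 and SAUR41 lie above 0, that of SAUR36 lies below 0, and those of SAUR75, SAUR32 and SAUR72 cover 0.

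SAUR71, SAUR9 (AT4G36110) and SAUR15 (AT4G38850) had no row in the table. The table held no gene at 0 in both groups, so the level of a gene without a row is not known from it. Every 60-base stretch of these 3 transcripts is unique in the genome. SAUR15 lies in a cluster with SAUR13, SAUR14 and SAUR16 on chromosome 4, 18121526 to 18131284, and none of these 4 genes had a row. The protein named as closest to SAUR9, SAUR10, and that closest to SAUR15, SAUR22, had no row either. Of the 80 SAUR family genes listed, 42 had a row and 38 had none.

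Levels between genes were compared per kb of exon. In IAA roots the order was SAUR32 with 54.0 normalised reads per kb, SAUR76 with 26.4, SAUR35 with 17.2, SAUR72 with 13.2, SAUR41 with 10.4, SAUR36 with 4.51 and SAUR75 with 1.80. By exact Poisson 95% intervals, SAUR32 (42.5 to 68.8) was set apart from SAUR76 (19.9 to 35.8). The intervals of every other pair of neighbours in this order overlapped, least so those of SAUR41 (6.94 to 16.1) and SAUR36 (2.56 to 7.86). In Control roots the order was SAUR32 with 42.3, SAUR36 with 16.6, SAUR72 with 16.3, SAUR76 with 3.43 and SAUR41 with 1.35, with SAUR35 and SAUR75 at 0. There SAUR32 (31.2 to 55.7) was set apart from SAUR36 (10.9 to 24.1), and SAUR72 (10.6 to 24.6) from SAUR76 (0.951 to 8.94). SAUR76 followed SAUR32 in IAA roots but stood below SAUR36 and SAUR72 in Control roots.

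Among the 35 other SAUR family genes with a row, of 70 listed, 9 were higher, 7 lower and 19 within 2-fold. These are 25.7% higher, against 14.9% of all genes, and 20.0% lower, against 13.7%. The median log2 ratio was 0.52, against 0.01 for all genes, and it is the value of SAUR63 and SAUR69, which had 1 read in IAA roots and 0 in Control roots. One of the lower genes, AT5G01830, carries the name SAUR21 in the annotation but encodes an ARM repeat protein. The means summed to 151.25 normalised reads in IAA roots and 152.53 in Control roots, with AT5G01830 adding 13.84 and 30.09. A list limited to SAUR product names, chosen after seeing the data, had 33 genes with a row. Of these 33, 9 were higher and 6 lower, and their means summed to 137.04 in IAA roots and 122.44 in Control roots. The family is lowly read, with a median of 1.54 normalised reads for the mean over both groups, against 11.9 for all genes. Of the 35 genes, 15 were at 0 in Control roots alone and 3 in IAA roots alone. The 15 have a row only through their IAA reads, several of them through 1 or 2 reads, and the Control column held fewer reads, so nothing is read from these counts.

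Beside SAUR34 and SAUR77, the largest differences upward were those of SAUR66 and SAUR52. SAUR66 (AT1G29500) had 3.78 in IAA roots, from 10 reads, and 0 in Control roots. Its IAA mean, taken without its own error, was 2.06 times the floor, and the interval began at 1.44, under 2-fold. SAUR52 (AT1G75590) had 4.93 in IAA roots and 0.59, a single read, in Control roots, a ratio of 8.36 with an interval of 1.14 to 331. Downward, SAUR55 (AT5G50760) had 1.64 in IAA roots and 11.78 in Control roots, a ratio of 0.139 with an interval of 0.032 to 0.408. SAUR37 (AT4G31320) had 3.53 and 17.72, a ratio of 0.199 with an interval of 0.081 to 0.452. SAUR5, like SAUR33, was at 0 in IAA roots and had 3 reads in Control roots.

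**Figure D3:**
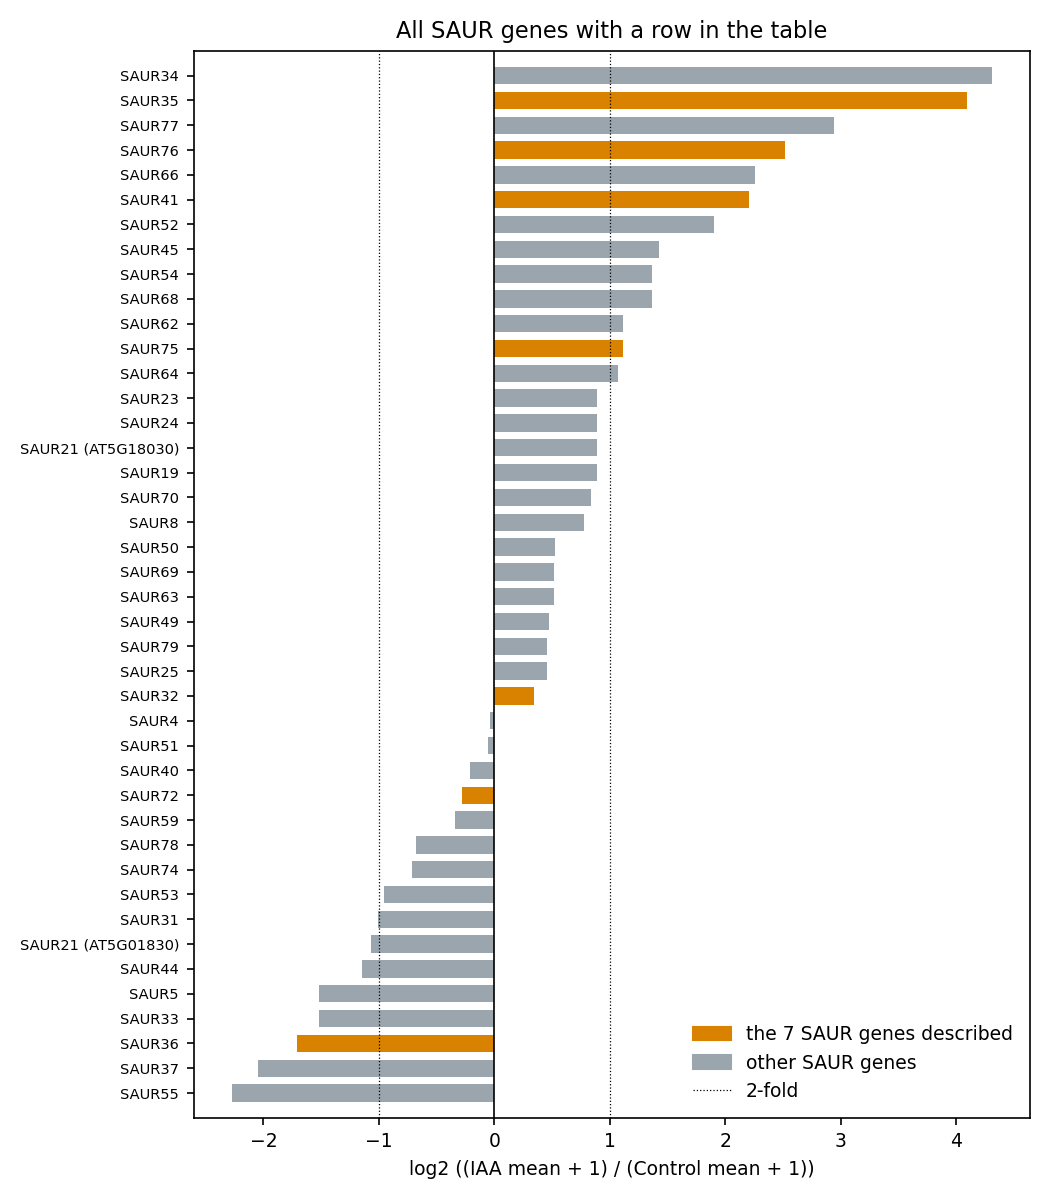
Log2 ratio of the IAA mean to the Control mean, with 1 added to each (x axis), for the 42 SAUR family genes with a row (y axis, ordered by value), with the 7 genes described in orange and the 35 others in grey and dotted lines at 2-fold. SAUR34 (4.31) and SAUR35 (4.09) lead and SAUR55 (-2.28) is lowest, and many bars between them stand for 1 to 4 reads. The 35 others include AT5G01830, which encodes an ARM repeat protein.

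The proteins that SAURs act through had more reads. All 9 PP2C.D and all 11 AHA genes had a row, and 1 of the 20 was higher and 3 were lower. The shares were 5% higher, against 14.9% of all genes, and 15% lower, against 13.7%, so the share of lower genes was close to that of all genes. PP2C.D1 (AT5G02760) had 14.45 normalised reads in IAA roots, from 37 reads, and 0 in Control roots. Being at 0 in Control roots, PP2C.D1 has a row only through its IAA reads. Its IAA mean, taken without its own error, was 7.88 times the floor, and the interval began at 6.15. PP2C.D7 had 0.85 in IAA roots and 4.76 in Control roots, from 2 and 8 reads. The ubiquitous pump genes AHA1, with 829.71 in IAA roots and 786.89 in Control roots, and AHA2, with 1111.99 and 1169.42, had ratios of 1.05 (interval 0.88 to 1.26) and 0.95 (interval 0.80 to 1.12). AHA7, a pump gene of root hairs, had 13.96 in IAA roots and 68.61 in Control roots, a ratio of 0.203 with an interval of 0.134 to 0.313. AHA6 had 1.89 and 6.16, a ratio of 0.307 with an interval of 0.086 to 1.03. Of the genes within 2-fold, AHA11 and AHA4 had intervals under 1 (0.460 to 0.860 and 0.246 to 0.926). So did PP2C.D5 (0.479 to 0.976), while that of PP2C.D3 (1.13 to 2.57) lay above 1. AHA4 had 7.61 in IAA roots and 15.45 in Control roots, a ratio of 0.493, past 2-fold without the 1 added. The root hair markers COBL9 and EXPA7 were lower together with AHA7, and their part in it was not tested.

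**Figure D4:**
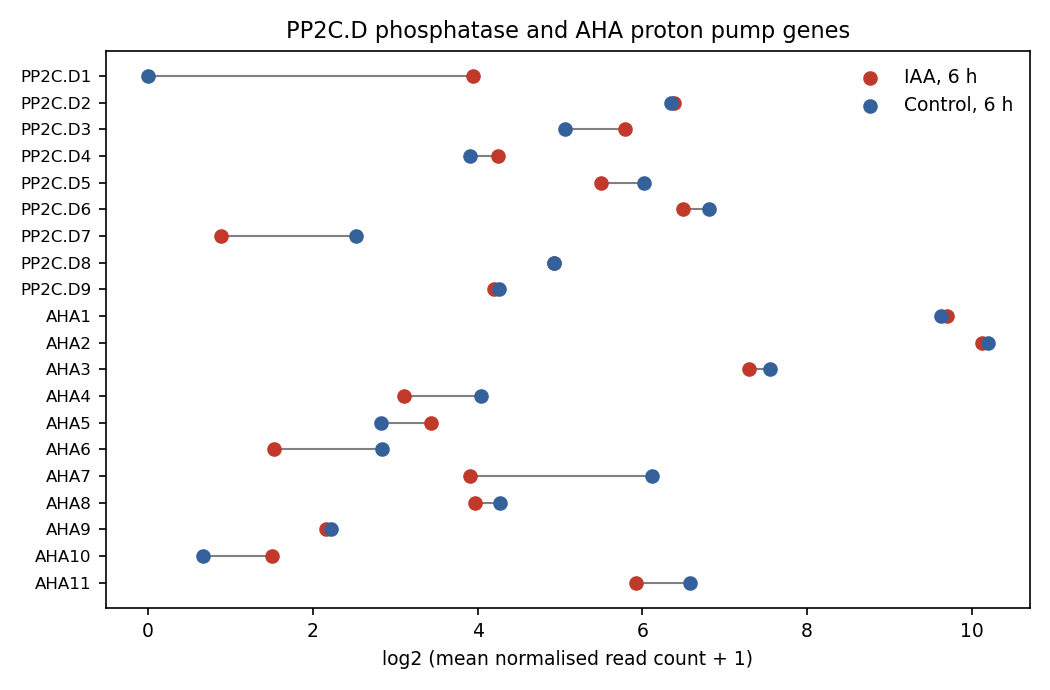
Log2 of the authors' mean normalised read count plus 1 (x axis) for the 9 PP2C.D and 11 AHA genes (y axis), with red points for IAA roots and blue points for Control roots joined by a line. PP2C.D1 had 14.45 in IAA roots and 0 in Control roots, AHA7 had 13.96 and 68.61, and AHA1 and AHA2 had points close together at the highest levels.

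**Figure D5:**
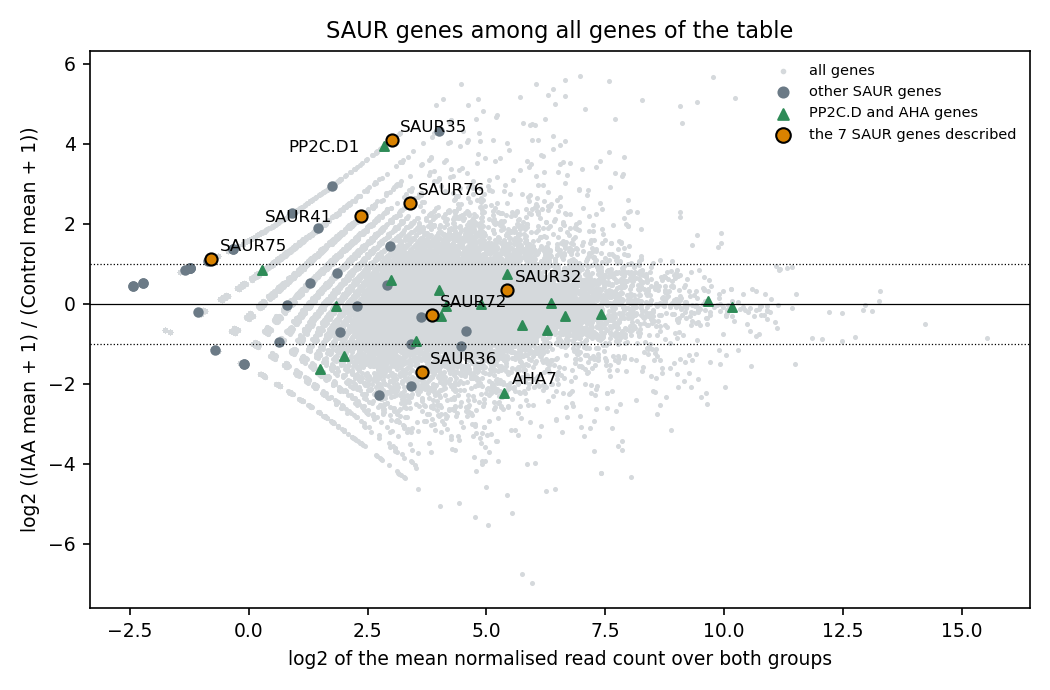
Log2 ratio of the IAA mean to the Control mean, with 1 added to each (y axis), against the log2 of the mean of both groups (x axis), for all 20423 genes (light grey), other SAUR genes (dark grey), PP2C.D and AHA genes (green triangles) and the 7 SAUR genes described (orange), with dotted lines at 2-fold. SAUR35 and PP2C.D1 lie on the upper edge, which is formed by genes at 0 in Control roots.

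Auxin response factors bind the element TGTCTC and, with higher affinity, TGTCGG. Both were looked for, on either strand, in the 500 bases before the gene start. TGTCTC was found at 2 of the 10 loci, SAUR15 and SAUR71, and in 21.3% of 27443 nuclear coding genes. TGTCGG was found at 1 of the 10, SAUR36, and in 7.69% of those genes, and either element at 3 of the 10 and in 27.4%. The windows are shown so that the elements of these 3 loci can be read beside their values: SAUR36 was lower in IAA roots and SAUR15 and SAUR71 had no row. That of PP2C.D1, which was higher, is added. SAUR34, also higher, was searched in the same way and had neither element. Each window is 30 bases of the plus strand in TAIR10.1, at chr4:18125953-18125982, chr1:21016945-21016974, chr2:18641165-18641194 and chr5:624954-624983, and the capitals mark the element as its reverse complement.
SAUR15: tgtgatgtctttGAGACAaataagccccaa
SAUR71: ttgacactgcacGAGACAttcggagtcacg
SAUR36: agcatgtaagctCCGACAaaacatattcag
PP2C.D1: tctaagaaaggaGAGACActtttaacgcaa
SAUR41, SAUR72, SAUR75, SAUR76, SAUR9, SAUR35 and SAUR32 had neither run of letters in this window.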

How the data were processed

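Total RNA of roots was depleted of ribosomal RNA and sequenced on the SOLiD platform. The authors mapped reads to TAIR10 with SHRiMP, counted uniquely mapped reads per gene with htseq-count and compared groups with DESeq, whose version is not given in the sources used here. The signal values in the deposited table are the authors' mean read counts per group after division by size factors. Another 4 columns hold the authors' fold, log2 fold, p-value and adjusted p-value and were not used. No test, SD or depth per library was possible, so genes were called by a limit of 2-fold with 1 added to each mean.

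Of 20423 IDs, 20192 matched the TAIR10.1 annotation (RefSeq) by locus tag, and coordinates, names and sequences are from it. Reads were recovered from the steps of the low means, and this was tested on simulated data. The simulation gave each step a library of its own with counting error only, so it did not cover libraries that share a step. SAUR family genes were taken by symbol, synonym or product name, clusters by distances under 20 kb. The members and lists were chosen with earlier results of these data known. Genes named were the 10 loci, the 8 other SAUR genes with the largest difference past 2-fold, closest proteins, cluster neighbours, PP2C.D and AHA genes past 2-fold, PP2C.D1, AHA1, AHA2, IAA5 and GH3.3. SAUR40, SAUR10, SAUR22, SAUR63, SAUR69, AT5G01830, PP2C.D3, PP2C.D5, AHA4, AHA11 and the marker genes lie outside this rule and were named after their values were seen. Alternatives were other added values, scalings, a minimum mean and a 3-fold limit. Computations used scipy 1.17.1, pandas 2.3.3 and numpy 2.4.6 under Python 3.11.15, and plots were drawn with matplotlib 3.10.9.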

Additional observations from a re-analysis of the deposited data

How the results depend on the processing

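No paired analysis was possible because the table holds only 1 mean per group, and for the same reason no library could be left out. Scaling the means to the same column sum or to a median ratio of 1 changed no count by over 1.5 times, and no direction of the 7 SAUR genes changed under any alternative run. A minimum mean of 10 over both groups left 4 of the 7 SAUR genes, removing SAUR35, SAUR41 and SAUR75. It left 6 other SAUR genes, 14 PP2C.D and AHA genes and 11139 of all genes. Of those left, 1 SAUR gene described, 1 other SAUR gene, 0 PP2C.D and AHA genes and 1364 of all genes were higher. Lower were 1 SAUR gene described, 3 other SAUR genes, 1 PP2C.D or AHA gene and 1146 of all genes. The 3 other SAUR genes include AT5G01830, which encodes an ARM repeat protein. With 5 added to each mean, 2 other SAUR genes and 1453 of all genes were higher, and 2 other SAUR genes, 1 PP2C.D or AHA gene and 1257 of all genes were lower. With 0.5 added, 14 other SAUR genes, 2 PP2C.D or AHA genes and 3520 of all genes were higher. Lower were 8 other SAUR genes, 3 PP2C.D or AHA genes and 3476 of all genes. With a limit of 3-fold, 4 other SAUR genes and 1316 of all genes were higher, and 2 other SAUR genes and 1213 of all genes were lower. The log2 ratio of SAUR35 ran between 2.07 and 5.05 over the alternatives, that of SAUR41 between 1.18 and 2.95, that of SAUR76 between 1.67 and 2.95 and that of SAUR75 between 0.30 and 1.73. A further alternative, chosen after seeing the data, required more than 3 reads in a group. Of the SAUR genes described, 3 were then higher and 1 was lower, SAUR75 being left out. Of all genes, 2947 were higher and 2518 lower. The depth limits genes at 0 in a group to a bound at 3 reads, a mean of 1.18 in IAA roots and 1.83 in Control roots.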
